A study of Mus musculus with 12 samples.

Results

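The mitochondrial carriers of the Slc25 family were described across 6 groups of 2 single-sample arrays. The members were all genes whose platform symbol was Slc25a followed by a digit, plus Ucp2 and Ucp3, with 1 probe set per gene, the one with the highest mean over the 12 arrays among those naming only that gene. This gave 45 of 18194 genes, 44 with an Slc25 symbol and Ucp3. Ucp2, Slc25a21, Slc25a43 and Slc25a52 were not analysed here. Ucp1, the uncoupling protein of brown fat, belongs to the family by sequence but not by the rule, and is given only as a reference point.

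Carriers of this family sit mostly in the inner mitochondrial membrane, which small charged molecules do not cross unaided. Each exchanges or co-transports a narrow set of substrates, such as ADP for ATP, phosphate, acylcarnitine, citrate, malate, aspartate, coenzyme A or iron, and so couples the cytosol to fuel oxidation in the matrix. In fat, citrate and malate carriers serve fatty acid synthesis, while acylcarnitine and adenine nucleotide carriers serve oxidation, as in brown fat and muscle.

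In the diet and genotype experiment (8 arrays), wild-type C57BL/6 mice and Smad3-/- mice received a regular diet or a high fat diet with 55% fat. The Smad3-/- mice, which lack a mediator of TGF-beta signals, were of mixed strain (C57BL/6 with NIH Black Swiss), so genotype and strain cannot be told apart. In the antibody experiment (4 arrays), mice labelled C57J/B6 with diet-induced obesity, also fed the 55% fat diet in both groups, had intraperitoneal injections for 8 weeks, 3 a week, of the TGF-beta antibody 1D11 or of the control IgG 13C4. The groups are called WT_RD, WT_HFD, KO_RD, KO_HFD, DIO_IgG and DIO_aTGFb, with arrays a and b each. The labels give no tissue and no age, and do not say that a and b were separate animals. The p-values therefore rest on array-to-array spread alone, which could be technical.

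Array medians were 6.32 to 6.39 log2 units in the first experiment and 6.03 to 6.04 in the second, so levels are compared only within an experiment. The Smad3 probe set did not pass between arrays labelled Smad3-/- and wild type, at 0.23 ± 0.11 (SE) on the regular and 0.17 ± 0.11 on the high fat diet. Whether it lies in the disrupted part is unknown here, so it does not check the genotype, and "knockout" below stands for the label. White fat markers were above the array median in every group (4 of 4 measured). Of 12 skeletal muscle markers, 0 were under the array median in KO_HFD and DIO_aTGFb, against 5 to 8 in the other groups. The log2 of their summed level was 14.68 to 14.79 in KO_HFD and 10.18 to 12.03 in the other 3 groups of that experiment, and 14.88 to 14.91 in DIO_aTGFb against 10.83 to 10.92 in DIO_IgG. The summed level of the epididymis and testis markers (8) reached 15.55 to 15.64 in KO_RD and stayed at 8.93 to 11.28 in the other groups of the experiment. Of these, the epididymis markers Lcn5, Lcn8, Lcn9 and Gpx5 were highest in KO_RD. The testis markers Prm1, Prm2, Tnp1 and Odf1 were highest in WT_HFD (Prm1 9.65, against 7.73 in KO_RD). Smooth muscle markers (4) were highest in WT_RD, at 14.44 to 14.47 against 11.65 to 12.22. The part of these tissues in the carrier values was not tested. In such bulk samples, fewer cells of a type and less RNA per cell cannot be told apart.

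**Figure D1:**
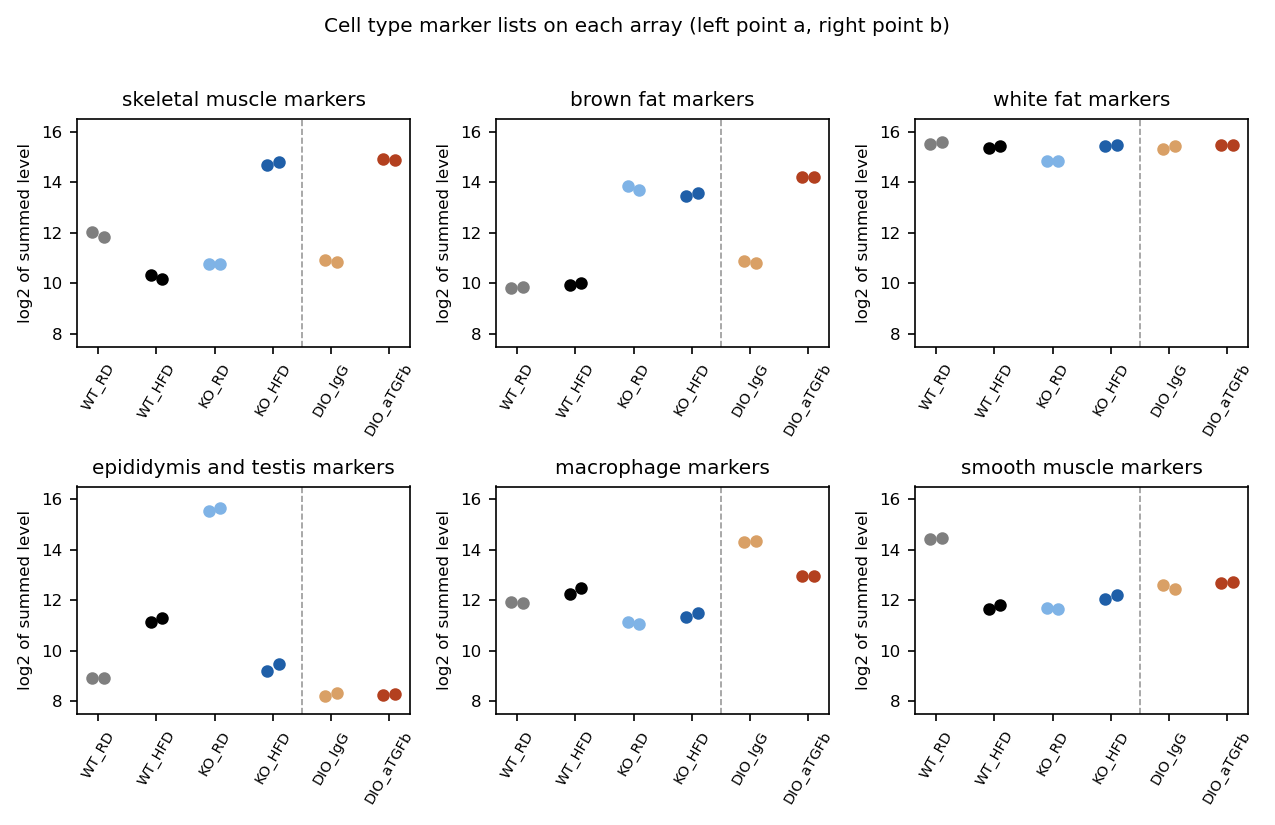
Log2 of the summed level of 6 cell type marker lists on each of the 12 arrays (points, a left and b right), by group; the dashed line separates the 2 experiments. Skeletal muscle markers were high in KO_HFD and DIO_aTGFb, epididymis and testis markers in KO_RD, brown fat markers in both knockout groups and DIO_aTGFb.

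Across the family, 29 of 45 members passed limma's test (Benjamini-Hochberg adjusted p under 0.05 over all 18194 genes, two-sided) in at least 1 of the 6 comparisons, and 16 passed in none (55.1% of all genes passed in none). The family did not move as a block. With the high fat diet 1 member rose and 5 fell in wild type, where 4.69% of all genes rose and 6.11% fell (10.8% in either direction). In the knockout 13 rose and 3 fell with that diet, against 11.5% and 5.82% of all genes (17.3%). In the knockout against wild type on the regular diet, 5 were higher and 12 lower, against 8.40% and 15.6% of all genes (24.0%). On the high fat diet 11 were higher and 1 lower, against 4.74% and 6.05% (10.8%). With the antibody 13 rose and 5 fell, against 11.7% and 12.6% (24.3%). The interaction, the diet difference in the knockout minus that in wild type, was positive in 12 and negative in 1, against 12.0% and 6.77% (18.8%). Quantile normalization over all 12 arrays turned the regular-diet genotype split into 11 higher and 9 lower, and that of the interaction into 10 positive and 4 negative. It also ended 3 of the 18 antibody calls, those of Slc25a29, Slc25a33 and Slc25a48 (limma adjusted p 0.118 to 0.151).

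The members' median log2 differences were -0.03 and 0.16 for the diet in wild type and knockout, -0.03 and 0.14 for genotype on the regular and high fat diet, 0.13 for the antibody and 0.27 for the interaction. Over all genes these medians were 0.02, -0.00, 0.04, -0.01, -0.00 and -0.02. SEs of the members were 0.10 to 0.18 in comparisons of 2 groups and 0.14 to 0.25 for the interaction. By mean level, 33 members lay over the 40th percentile of genes, where calls were more common. With genes under it left out, 1125 of 10916 genes were higher and 2827 lower for genotype on the regular diet. For the antibody 1790 were higher and 1693 lower. The shares of all genes given beside member counts are thus not matched to the members' level. The 3 members Slc25a31, Slc25a41 and Slc25a54 were under the array median on all 12 arrays, where values may be background. None of these 3 passed in any comparison. Of 82 calls over the 6 comparisons, 45 held under every alternative setting that measured the gene, 37 were lost under at least 1, and 0 reversed. Of the 37, 35 were lost on leaving out 1 array.

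**Figure D2:**
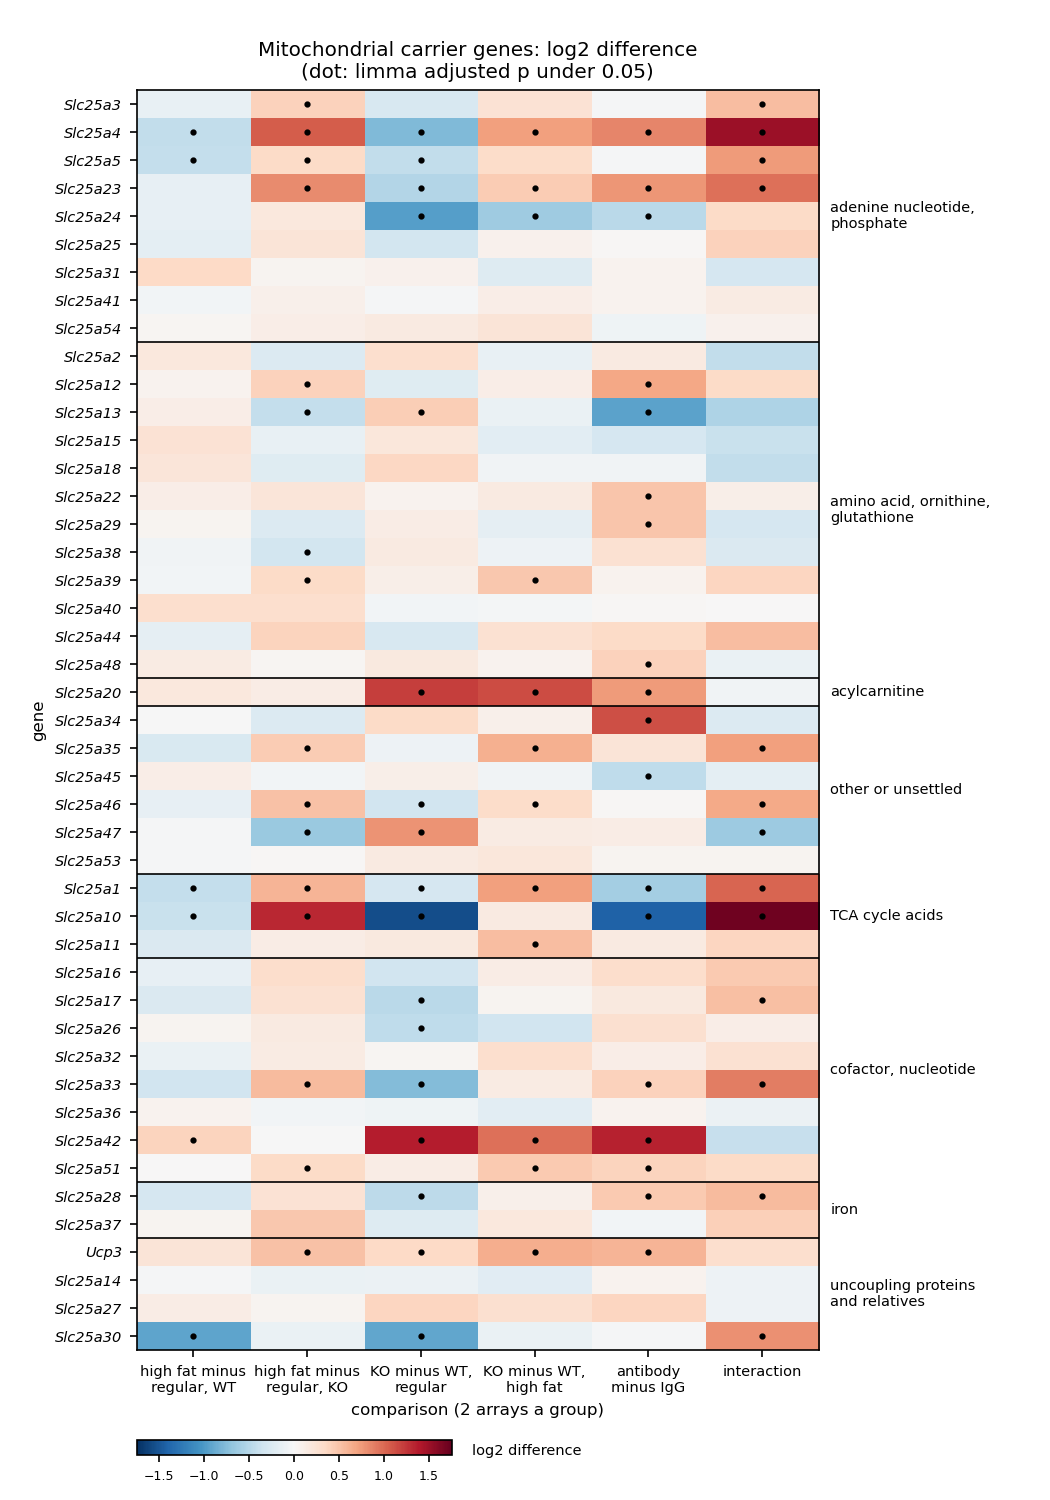
Log2 differences (colour) of the 45 carrier genes (rows, grouped by substrate) in the 6 comparisons (columns), from 2 arrays a group; dots mark a limma adjusted p under 0.05. Slc25a20 and Slc25a42 were higher in the knockout on both diets and with the antibody, while Slc25a10 was lower in the knockout on regular diet and with the antibody.

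Slc25a20, the carnitine-acylcarnitine carrier, which brings acylcarnitines into the matrix for beta-oxidation, was higher in the knockout on both diets and with the antibody. Its arrays read 9.60 and 9.49 log2 units in WT_RD, 9.61 and 9.85 in WT_HFD, 10.75 and 10.75 in KO_RD, and 10.75 and 11.00 in KO_HFD. All 4 knockout arrays lay above all 4 wild-type arrays. The log2 difference was 1.21 ± 0.11 (SE), or 2.31-fold, on the regular diet (limma adjusted p = 7.27e-10) and 1.14 ± 0.11 on the high fat diet (adjusted p = 6.9e-09). In obese mice the values were 10.24 and 10.08 with IgG and 10.90 and 10.90 with the antibody, a log2 difference of 0.74 ± 0.11 (adjusted p = 6.21e-06). Diet left no called difference in wild type (0.19, 95% confidence interval -0.04 to 0.41) or in the knockout (0.12, interval -0.10 to 0.35). The gene's other probe set gave 1.33, 1.22 and 0.85 for the same 3 comparisons.

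Slc25a42, which exchanges coenzyme A across the inner membrane, was also higher in all 3 comparisons. It read 8.18 and 8.02 in WT_RD, 8.62 and 8.35 in WT_HFD, 9.59 and 9.34 in KO_RD, and 9.40 and 9.51 in KO_HFD. Knockout and wild-type arrays again did not overlap. The log2 difference between genotypes was 1.37 ± 0.11 on the regular diet, or 2.58-fold (limma adjusted p = 1.77e-10), and 0.97 ± 0.11 on the high fat diet (adjusted p = 3.99e-07). With the antibody it rose from 8.87 and 8.92 to 10.27 and 10.21, by 1.35 ± 0.11 (2.54-fold, adjusted p = 4.07e-10), the highest difference among the 45 members in that comparison. It was also the one member called higher with the high fat diet in wild type (0.39 ± 0.11, adjusted p = 0.0242), a call lost without WT_RD replicate b or WT_HFD replicate a (adjusted p up to 0.454 over the alternatives). Its other probe set lay under the array median on all 12 arrays and was called in no comparison.

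Ucp3, an uncoupling protein found mainly in skeletal muscle and brown fat, was the remaining member higher in all 3 comparisons. It read 7.16 and 7.09 in WT_RD, 7.35 and 7.35 in WT_HFD, 7.39 and 7.55 in KO_RD, and 7.95 and 8.02 in KO_HFD. The genotype difference was 0.35 ± 0.12 on the regular diet (limma adjusted p = 0.027) and 0.64 ± 0.12 on the high fat diet (adjusted p = 0.000218). The first of these was lost with arrays centred on their medians (adjusted p = 0.0517) and without WT_RD replicate a, WT_RD replicate b or KO_RD replicate b (0.0645, 0.149 and 0.205). Its other probe set was called for genotype on the high fat diet and for the antibody, but not on the regular diet. With the antibody Ucp3 rose from 8.64 and 8.47 to 9.11 and 9.18 (0.59 ± 0.12, adjusted p = 0.000263), and with the high fat diet it rose in the knockout by 0.51 ± 0.12 (adjusted p = 0.00156). The excluded relative Ucp1 read 6.33 to 6.44 on the 4 wild-type arrays, close to the array medians, and 11.67 to 12.44 on the knockout arrays. With IgG it read 5.53 and 5.42, under the array median where values may be background, and it was higher with the antibody, at 12.3 and 12.5. Of the 7 brown fat markers, Ucp1 included, 5 were higher in the knockout on each diet and 7 with the antibody. With diet in the knockout, where Ucp3 rose, 0 were higher and 1 lower. Skeletal muscle markers were higher in 12 of 12 there, for genotype on the high fat diet and with the antibody. For genotype on the regular diet 8 of the 12 were higher and 3 lower. The part of either tissue in the Ucp3 values was not tested.

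The 3 comparisons of genotype on each diet and of the antibody share no array. The 3 members higher in all of them (6.67% of the family, against 0.698% of all genes) were 3 of the 5 higher on the regular diet, 3 of the 11 on the high fat diet and 3 of the 13 with the antibody. Slc25a24, a calcium-regulated carrier of ATP-Mg and phosphate, was the one member lower in all 3 (1.24% of all genes were). It read 7.63 and 7.52 in WT_RD, 7.36 and 7.49 in WT_HFD, 6.59 and 6.64 in KO_RD, and 6.86 and 6.75 in KO_HFD, with no overlap between genotypes. The differences were -0.96 ± 0.13 on the regular and -0.62 ± 0.13 on the high fat diet (limma adjusted p = 1.55e-06 and 0.00142). With the antibody it fell from 9.31 and 9.17 to 8.54 and 8.99 (-0.47 ± 0.13, adjusted p = 0.0084), a call lost without DIO_IgG replicate a or DIO_aTGFb replicate a (adjusted p up to 0.279). Macrophage markers were lower beside it, 5 of 6 on the regular diet, 3 of 6 on the high fat diet and 5 of 6 with the antibody.

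**Figure D3:**
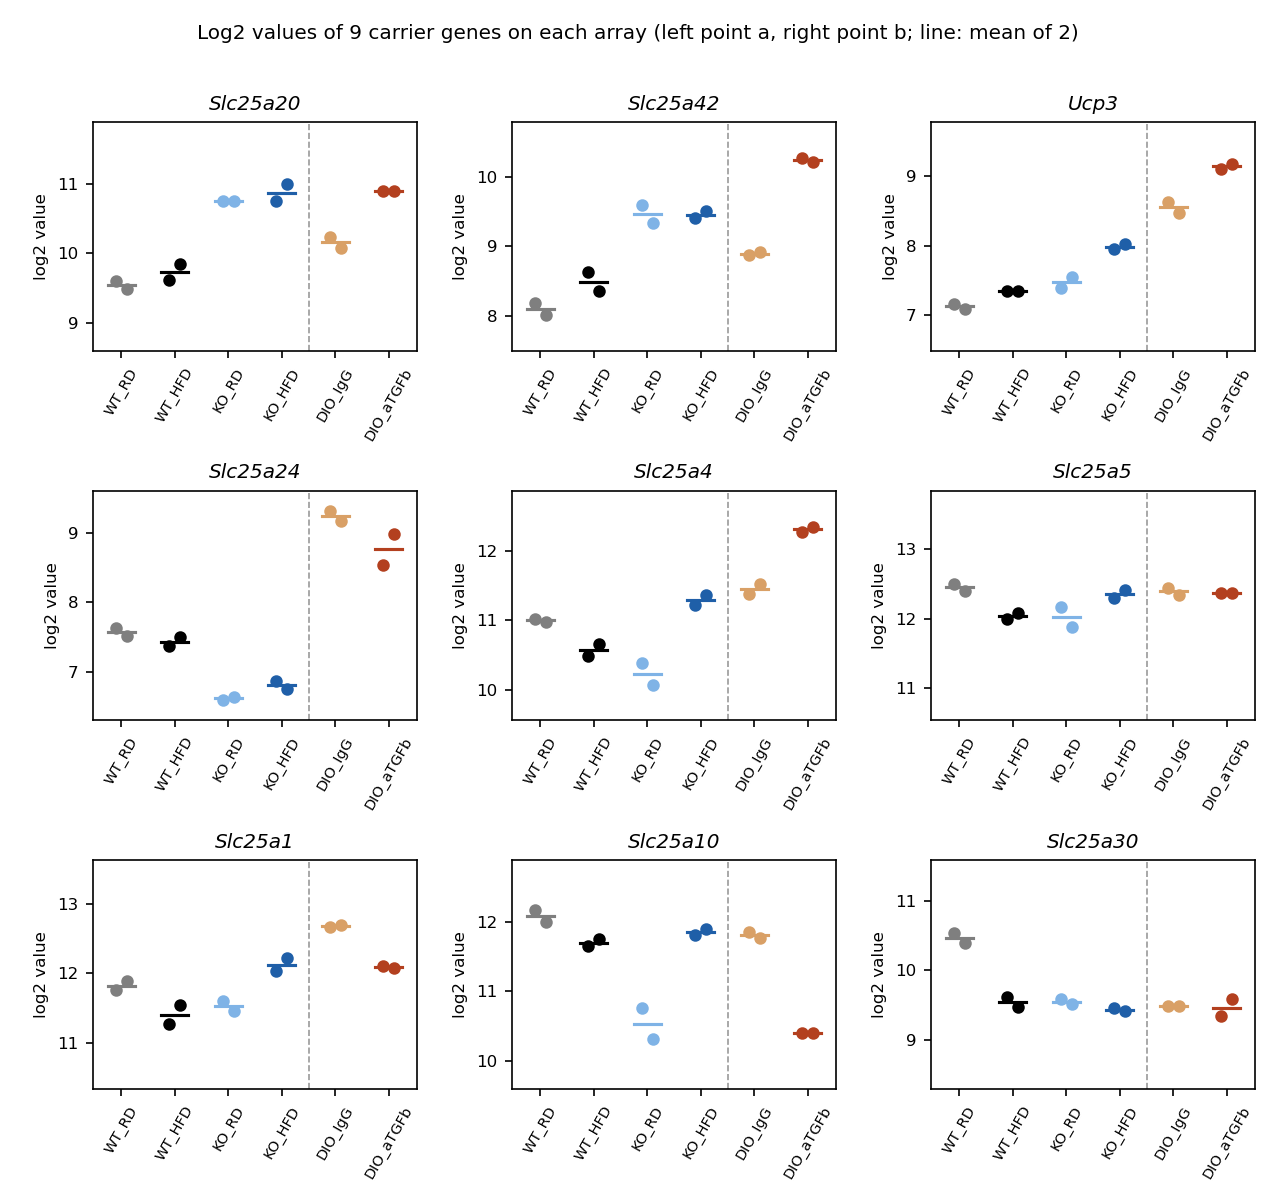
Log2 values of 9 carrier genes on each array (points, a left and b right; lines, means of 2) by group; each vertical axis spans 3.3 log2 units and the dashed line separates the 2 experiments. Slc25a20 and Slc25a42 were higher on all 4 knockout arrays, Slc25a10 was lowest in KO_RD and DIO_aTGFb, and Slc25a30 was highest in WT_RD.

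The promoters of the 3 shared risers are shown with that of Slc25a4, whose values follow, as 3 genes called in the same direction in comparisons that share no array and 1 called in opposite directions on the 2 diets. Sequences are RefSeq windows of 300 bases around the annotated start (build GRCm38.p6), printed 5′ to 3′ on the gene's strand, and 35 of the 45 members matched such a window, with 44 windows between them. Capitals mark matches, on either strand, to the GC box (GGGCGG), the CCAAT box (CCAAT) or the nuclear receptor half-site (AGGTCA). The matches do not overlap one another.
Slc25a20, chr9:108661886-108662185, plus strand: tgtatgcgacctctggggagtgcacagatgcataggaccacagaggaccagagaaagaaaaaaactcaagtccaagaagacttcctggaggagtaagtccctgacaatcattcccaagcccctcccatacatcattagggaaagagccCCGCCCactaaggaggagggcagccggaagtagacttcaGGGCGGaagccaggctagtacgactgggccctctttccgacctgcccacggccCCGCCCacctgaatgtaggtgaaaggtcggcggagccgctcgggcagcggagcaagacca
Slc25a42, chr8:70212232-70212531, minus strand: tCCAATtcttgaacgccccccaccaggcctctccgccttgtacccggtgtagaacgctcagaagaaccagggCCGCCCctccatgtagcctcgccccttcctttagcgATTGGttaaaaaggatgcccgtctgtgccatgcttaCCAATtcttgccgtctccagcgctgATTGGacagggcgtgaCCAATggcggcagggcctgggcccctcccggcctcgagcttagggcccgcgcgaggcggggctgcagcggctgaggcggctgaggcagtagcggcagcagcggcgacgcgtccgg
Ucp3, chr7:100472741-100473040, plus strand: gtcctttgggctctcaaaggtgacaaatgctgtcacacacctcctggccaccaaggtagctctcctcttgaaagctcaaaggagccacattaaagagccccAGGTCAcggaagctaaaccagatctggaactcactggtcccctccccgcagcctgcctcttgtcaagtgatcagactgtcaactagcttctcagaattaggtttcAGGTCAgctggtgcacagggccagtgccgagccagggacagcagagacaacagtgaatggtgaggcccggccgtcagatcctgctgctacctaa
Slc25a4, chr8:46211013-46211312, minus strand: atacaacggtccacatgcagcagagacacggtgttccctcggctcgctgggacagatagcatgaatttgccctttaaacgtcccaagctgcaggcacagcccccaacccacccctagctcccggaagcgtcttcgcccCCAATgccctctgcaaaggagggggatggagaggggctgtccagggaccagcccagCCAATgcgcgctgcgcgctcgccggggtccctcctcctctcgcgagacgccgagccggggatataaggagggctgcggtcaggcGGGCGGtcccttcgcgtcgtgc

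The 4 windows differ in these motifs. Slc25a20 has 3 GC boxes and none of the other motifs, Slc25a42 has 1 GC box and 5 CCAAT boxes, Slc25a4 has 1 GC box and 2 CCAAT boxes, and Ucp3 has 2 half-sites and none of the others. A GC box occurred in 37 of 44 member windows (84.1%) against 35.7% of all 32851 windows, a CCAAT box in 21 (47.7% against 37.4%) and a half-site in 5 (11.4% against 16.3%). A match describes letters in this window and is not a binding site. The reference windows came from 27025 genes and were not limited to genes measured on the arrays. Whether the member shares differ from those of measured genes at similar levels was not tested.

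Among the adenine nucleotide and phosphate carriers (9 measured), 0 were higher and 4 lower in the knockout on the regular diet, against 8.40% and 15.6% of all genes. On the high fat diet 2 were higher and 1 lower, against 4.74% and 6.05%. Of the 9, Slc25a4 and Slc25a23 had genotype calls in opposite directions on the 2 diets. Slc25a4 is the ADP/ATP carrier typical of skeletal muscle and heart. It read 11.02 and 10.98 in WT_RD, 10.49 and 10.65 in WT_HFD, 10.38 and 10.07 in KO_RD, and 11.21 and 11.36 in KO_HFD. KO_HFD was thus the highest and KO_RD the lowest group, and no neighbouring pair of groups overlapped in its arrays. The genotype difference was -0.77 ± 0.11 on the regular diet (limma adjusted p = 2.33e-06) and 0.72 ± 0.11 on the high fat diet (adjusted p = 2.04e-05). The interaction was 1.49 ± 0.15 (adjusted p = 1.63e-08).

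With the antibody Slc25a4 rose from 11.38 and 11.52 to 12.27 and 12.35, by 0.86 ± 0.11 (limma adjusted p = 6.05e-07). In the diet comparison it rose by 1.06 ± 0.11 in the knockout and fell by 0.43 in wild type. The wild-type call was lost without WT_RD replicate a or WT_HFD replicate a (adjusted p up to 0.106). Skeletal muscle markers rose beside the 3 increases, 12 of 12 in each, with medians of 3.81 for diet in the knockout, 4.23 for genotype on the high fat diet and 5.63 for the antibody. Beside the decrease with genotype on the regular diet 8 of the 12 were higher and 3 lower, while their summed level was lower in KO_RD (10.76 to 10.78) than in WT_RD (11.84 to 12.03). Beside the decrease with diet in wild type 0 were higher and 4 lower. The part of muscle in these values was not tested. Of the gene's other 3 probe sets 1 lay under the array median throughout. For genotype on the high fat diet another gave 0.68 and was called, and the last gave 0.19 and was not.

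Slc25a5, the ADP/ATP carrier expressed in most tissues, moved less. It read 12.50 and 12.40 in WT_RD, 11.99 and 12.09 in WT_HFD, 12.17 and 11.88 in KO_RD, and 12.30 and 12.42 in KO_HFD. The interaction was 0.74 ± 0.15 (limma adjusted p = 0.000468) and held under every alternative, whereas 3 calls were lost when certain arrays were left out: diet in wild type (-0.41), diet in the knockout (0.33) and genotype on the regular diet (-0.43). These arrays were WT_RD replicate a and WT_HFD replicate a for diet in wild type, WT_RD replicate a and KO_RD replicate b for genotype, and KO_RD replicate b, KO_HFD replicate a and KO_HFD replicate b for diet in the knockout, with adjusted p up to 0.336 over all alternatives. With the antibody it was 12.37 and 12.38 against 12.45 and 12.34, a difference of -0.02 (95% confidence interval -0.24 to 0.20). Its probe set is of a type whose probes can match related transcripts, so signal from near-identical copies cannot be told apart from it.

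Slc25a23, another calcium-regulated ATP-Mg carrier, rose with the antibody from 7.57 and 7.73 to 8.31 and 8.53 (0.77 ± 0.13, limma adjusted p = 4.39e-05). In the other experiment it read 7.22 and 7.34 in WT_RD, 7.21 and 7.07 in WT_HFD, 6.62 and 6.91 in KO_RD, and 7.55 and 7.64 in KO_HFD. Like Slc25a4 it was lowest in KO_RD and highest in KO_HFD, with an interaction of 0.97 ± 0.18 (adjusted p = 0.000219). The phosphate carrier Slc25a3, which supplies phosphate for ATP synthesis, rose with diet in the knockout by 0.41 ± 0.11 (adjusted p = 0.00734), from 12.00 and 11.66 to 12.21 and 12.27. That call was lost without KO_RD replicate b or KO_HFD replicate b (adjusted p up to 0.404 over the alternatives), and the antibody difference was -0.02 (interval -0.24 to 0.21). Slc25a25, one more ATP-Mg carrier, passed in no comparison, with values of 8.01 to 8.52 on the 8 diet and genotype arrays and 9.07 to 9.50 on the 4 antibody arrays. The testis carrier Slc25a31, with Slc25a41 and Slc25a54, stayed under the array median in every group. That includes WT_HFD, where the testis markers Prm1, Prm2, Tnp1 and Odf1 were highest and Slc25a31 read 4.66 and 4.68.

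Of the 3 carriers of tricarboxylic acid cycle acids, Slc25a1 and Slc25a10 were lower and 0 higher in the knockout on the regular diet and with the antibody. Of all genes 15.6% were lower and 8.40% higher in the first, and 12.6% and 11.7% in the second. In the knockout on the high fat diet Slc25a1 and Slc25a11 were higher and 0 lower, against 4.74% and 6.05% of all genes. Slc25a10 exchanges malate or succinate for phosphate and is abundant in white fat. It read 12.17 and 12.00 in WT_RD, 11.65 and 11.76 in WT_HFD, 10.76 and 10.31 in KO_RD, and 11.81 and 11.90 in KO_HFD. The KO_RD arrays stood below the other 6, which lay between 11.65 and 12.17. The genotype difference was -1.55 ± 0.12 on the regular diet, 2.93-fold lower (limma adjusted p = 1.92e-11), and the high fat difference was 0.15 (95% confidence interval -0.09 to 0.39).

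With the high fat diet Slc25a10 rose by 1.32 ± 0.12 in the knockout (limma adjusted p = 9.22e-10). That comparison shares the KO_RD arrays with the genotype comparison on the regular diet. In wild type the call of -0.38 was lost without WT_RD replicate a or either WT_HFD array (adjusted p up to 0.327). The interaction, 1.70 ± 0.17, was the largest of the family (adjusted p = 4.77e-09). With the antibody the gene fell from 11.85 and 11.77 to 10.40 and 10.40, by 1.42 ± 0.12 (2.67-fold, adjusted p = 1.98e-10), the largest decrease among members in that comparison. A second probe set gave -1.08, 0.88 and -1.31 for genotype on the regular diet, diet in the knockout and the antibody. Of the 4 white fat markers 3 were lower in the knockout on the regular diet, whereas with the antibody 2 were higher and 1 lower.

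Slc25a1, the citrate carrier that exports citrate for fatty acid synthesis, read 11.75 and 11.88 in WT_RD, 11.27 and 11.54 in WT_HFD, 11.59 and 11.46 in KO_RD, and 12.03 and 12.21 in KO_HFD. It was higher in the knockout on the high fat diet by 0.72 ± 0.11 (limma adjusted p = 1.51e-05), and its interaction was 1.01 ± 0.15 (adjusted p = 8.55e-06). With the high fat diet it rose in the knockout by 0.60 ± 0.11 (adjusted p = 0.000123), and its wild-type difference of -0.42 was called but lost without WT_RD replicate b or WT_HFD replicate a (adjusted p up to 0.182). The genotype difference on the regular diet was -0.29 ± 0.11 (adjusted p = 0.048), a call lost under 10 of 16 alternatives. It was lost on leaving out WT_RD replicate a, WT_RD replicate b, KO_RD replicate b or either KO_HFD array. Other losses were without an intensity trend (limma adjusted p = 0.106), with only that experiment's arrays (0.0947) and with the replicate letter as a block (0.0782). It was also lost with the mean of the probe sets of each gene and with quantile normalization, which gave -0.03. With the antibody it fell from 12.67 and 12.70 to 12.10 and 12.07 (-0.60 ± 0.11, adjusted p = 0.000102), opposite in sign to its difference in the knockout on the high fat diet. Whether these 2 differ was not tested, since they lie in separate experiments. Slc25a11, which exchanges oxoglutarate for malate in the malate-aspartate shuttle, was higher in the knockout on the high fat diet, at 9.75 and 10.03 against 9.33 and 9.36 (0.54 ± 0.11, adjusted p = 0.000875, and 0.0558 without KO_HFD replicate b). Its antibody difference was 0.16 (interval -0.06 to 0.39).

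**Figure D4:**
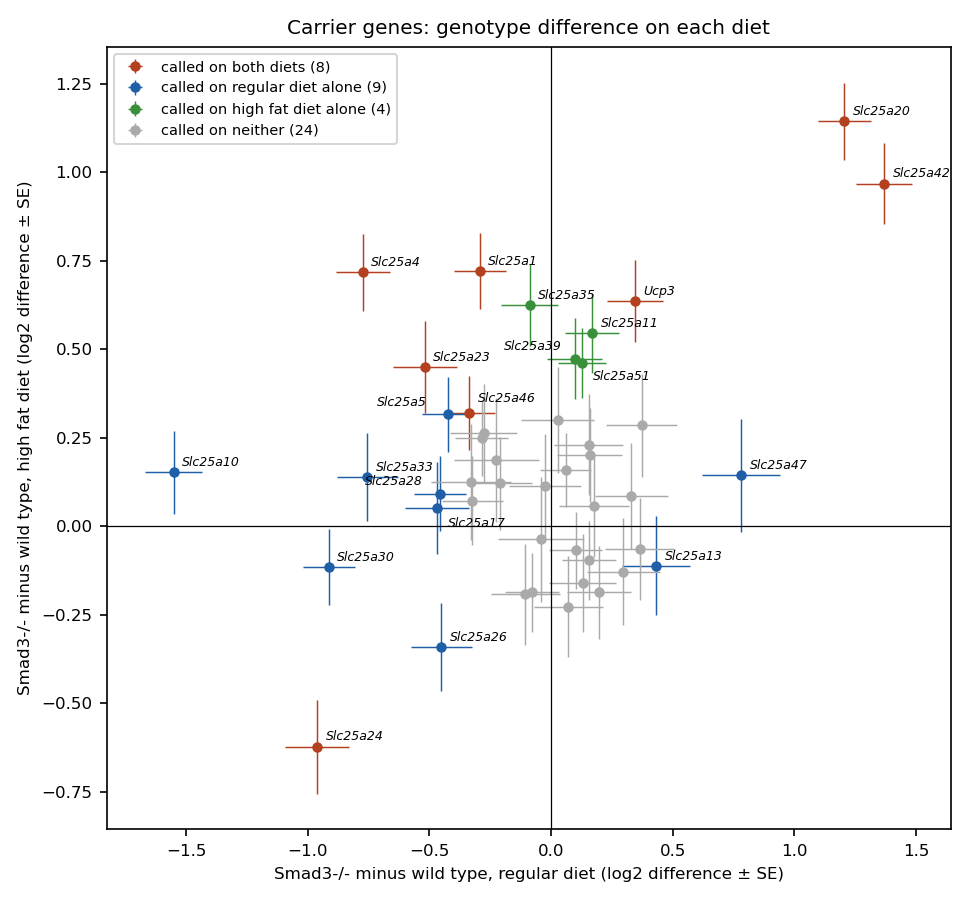
Knockout minus wild type log2 differences with SE (bars) for the 45 carrier genes on the regular diet (horizontal) and the high fat diet (vertical), coloured by call; the 2 axes share no array. The legend counts 8 genes called on both diets, with Slc25a20, Slc25a42 and Ucp3 higher and Slc25a24 lower on both.

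Genotype calls on the 2 diets were in opposite directions for Slc25a1, Slc25a4, Slc25a23 and Slc25a46 (8.89% of members, 3.29% of all genes), each lower in the knockout on the regular diet and higher on the high fat diet. Of these, Slc25a4 kept both calls under every alternative. Slc25a1 kept its call on the high fat diet under every alternative but lost that on the regular diet under 10 of 16. For Slc25a46, an outer membrane protein that shapes mitochondria, the calls of -0.34 and 0.32 were lost without WT_RD replicate b or KO_RD replicate b, and without any of the 4 high fat arrays (limma adjusted p up to 0.236). For Slc25a23, the calls were lost without KO_RD replicate a on the regular diet and without WT_HFD replicate b, KO_HFD replicate a or KO_HFD replicate b on the high fat diet (adjusted p up to 0.184). The Slc25a46 call on the high fat diet was lost under 9 of 18 alternatives. These included arrays centred on their medians, the replicate letter as a block and a fit of only that experiment's arrays. Its call on the regular diet was also lost with quantile normalization. The interactions of Slc25a46 and Slc25a23 held under every alternative.

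The genes listed as amino acid, ornithine and glutathione carriers (12 measured) had 4 higher and 1 lower with the antibody (24.3% of all genes were called). They had 2 higher and 2 lower with diet in the knockout (17.3%). Slc25a48, 1 of the 4 higher with the antibody, was placed in this class by the list, and these data do not check its substrate. With the antibody the 2 aspartate-glutamate carriers went opposite ways. Slc25a12, the form of muscle and brain, rose from 8.13 and 8.10 to 8.87 and 8.72 (0.68 ± 0.13, limma adjusted p = 0.000236). Slc25a13, the form typical of liver, fell from 6.28 and 6.26 to 5.16 and 5.51 (-0.94 ± 0.14, adjusted p = 7.83e-06). Its antibody values lay under the array median of 6.03, where values may be background. Both IgG arrays lay outside the range of the antibody arrays for each gene. Beside this, liver markers fell in 5 of 5 with the antibody (median -2.45) and skeletal muscle markers rose. The part of either tissue in the values of these 2 carriers was not tested. In the diet and genotype arrays Slc25a12 lay between 6.88 and 7.49, and its one call there (0.40 for diet in the knockout) was lost without either KO_RD array or KO_HFD replicate b. There Slc25a13 read 6.94 and 6.86 in KO_RD and 6.44 to 6.59 on the other 6 arrays, but its calls of 0.43 (genotype, regular diet) and -0.42 (diet, knockout) were each lost when any 1 of their 4 arrays was left out, with adjusted p up to 0.163.

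Slc25a22, a glutamate carrier, rose with the antibody from 9.11 and 9.25 to 9.68 and 9.64 (0.48 ± 0.11, limma adjusted p = 0.000902). Slc25a29, a carrier of basic amino acids, and Slc25a48 also rose, by 0.49 and 0.41. Both calls were lost with quantile normalization and without DIO_IgG replicate a or DIO_aTGFb replicate a. That of Slc25a48 was also lost without DIO_aTGFb replicate b, and with only that experiment's arrays (limma adjusted p = 0.0807). Slc25a48 read 5.18 and 5.37 with IgG and 5.69 and 5.68 with the antibody. These values lay under the array median, where values may be background. Slc25a39, a glutathione carrier, was higher in the knockout on the high fat diet (0.47 ± 0.11, adjusted p = 0.00486), a call lost without WT_HFD replicate a or KO_HFD replicate a (adjusted p up to 0.172). The Slc25a39 call was also lost with the mean of the gene's 5 probe sets (limma adjusted p = 0.123). The probe sets used for Slc25a39 and Slc25a29 are, like that of Slc25a5, of a type whose probes can match related transcripts. The call of Slc25a39 for diet in the knockout (0.33) and that of the glycine carrier Slc25a38 (-0.32) were lost under most array omissions in that comparison. The ornithine carriers Slc25a2 and Slc25a15, the glutamate carrier Slc25a18, the glutathione carrier Slc25a40 and Slc25a44, which carries branched-chain amino acids, passed in no comparison.

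Among 8 cofactor and nucleotide carriers, Slc25a33, a pyrimidine nucleotide carrier, was lowest in KO_RD. It read 8.60 and 8.31 in WT_RD, 8.23 and 8.00 in WT_HFD, 7.75 and 7.64 in KO_RD, and 8.12 and 8.38 in KO_HFD. The genotype difference was -0.76 ± 0.12 on the regular diet (limma adjusted p = 2.45e-05), and the interaction was 0.89 ± 0.18 (adjusted p = 0.000324). Its rise with the antibody (0.41) was lost with quantile normalization over all 12 arrays. It was also lost without DIO_IgG replicate b or either antibody array (differences of 0.29 to 0.46 over the alternatives). Slc25a51, which brings NAD into mitochondria, was higher in the knockout on the high fat diet, at 10.70 and 10.77 against 10.21 and 10.33 (0.46 ± 0.10, adjusted p = 0.00165). Its antibody call (0.39) was lost without DIO_IgG replicate b or DIO_aTGFb replicate b (adjusted p 0.0624 and 0.0768). Slc25a17 and Slc25a26, a peroxisomal carrier and the carrier of S-adenosylmethionine, were lower in the knockout on the regular diet (-0.47 and -0.45). The Slc25a26 call was lost without WT_RD replicate b or KO_RD replicate a (adjusted p up to 0.0954), and that of Slc25a17 with the mean of its probe sets (adjusted p = 0.431). Slc25a16, Slc25a32 and Slc25a36 passed in no comparison.

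Of the 2 mitoferrins, which bring iron into mitochondria for heme and iron-sulfur clusters, Slc25a28 rose with the antibody from 9.73 and 9.61 to 10.10 and 10.16 (0.46 ± 0.11, limma adjusted p = 0.0016). Its genotype difference on the regular diet was -0.46 ± 0.11 (adjusted p = 0.00153, and 0.0711 after quantile normalization). Slc25a37, the form of red cell precursors, passed in no comparison, and its KO_RD arrays were 5.21 and 6.02.

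Among the uncoupling protein relatives, Slc25a30 set WT_RD apart. Its arrays read 10.54 and 10.39 in WT_RD and 9.41 to 9.62 on the remaining 6 diet and genotype arrays. With the high fat diet it fell by 0.92 in wild type (SE 0.11, limma adjusted p = 2.62e-07), the one diet call in wild type that held under every alternative, and the genotype difference on the regular diet was -0.91 ± 0.11 (adjusted p = 1.01e-07). Both comparisons share the WT_RD arrays. The WT_RD arrays also had the highest smooth muscle markers, of which 4 of 4 fell in both comparisons, and the smallest 3′ to 5′ difference of Gapdh, an indicator of RNA degradation, at 0.12 and 0.14 against 0.28 to 0.50. With the antibody the difference of Slc25a30 was -0.02 (95% confidence interval -0.24 to 0.20). Slc25a14 and Slc25a27, relatives expressed mainly in brain, passed in no comparison.

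Of the 6 carriers with other or unsettled substrates, Slc25a34 rose with the antibody from 5.96 and 5.99 to 7.17 and 7.05, by 1.13 ± 0.15 or 2.19-fold (limma adjusted p = 1.23e-06). The IgG values lie just under the array median of 6.03 to 6.04. Slc25a45 fell from 8.27 and 8.20 to 7.82 and 7.76 (-0.45 ± 0.11, adjusted p = 0.00269). Slc25a47, known from liver, read 7.49 and 7.57 in KO_RD and 6.52 to 6.94 on the other 6 arrays, a genotype difference of 0.78 ± 0.16 on the regular diet (adjusted p = 0.000386). Slc25a35 was higher in the knockout on the high fat diet, at 8.56 and 8.74 against 7.90 and 8.15 (0.62 ± 0.12, adjusted p = 0.000313), and Slc25a53 passed in no comparison.

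**Figure D5:**
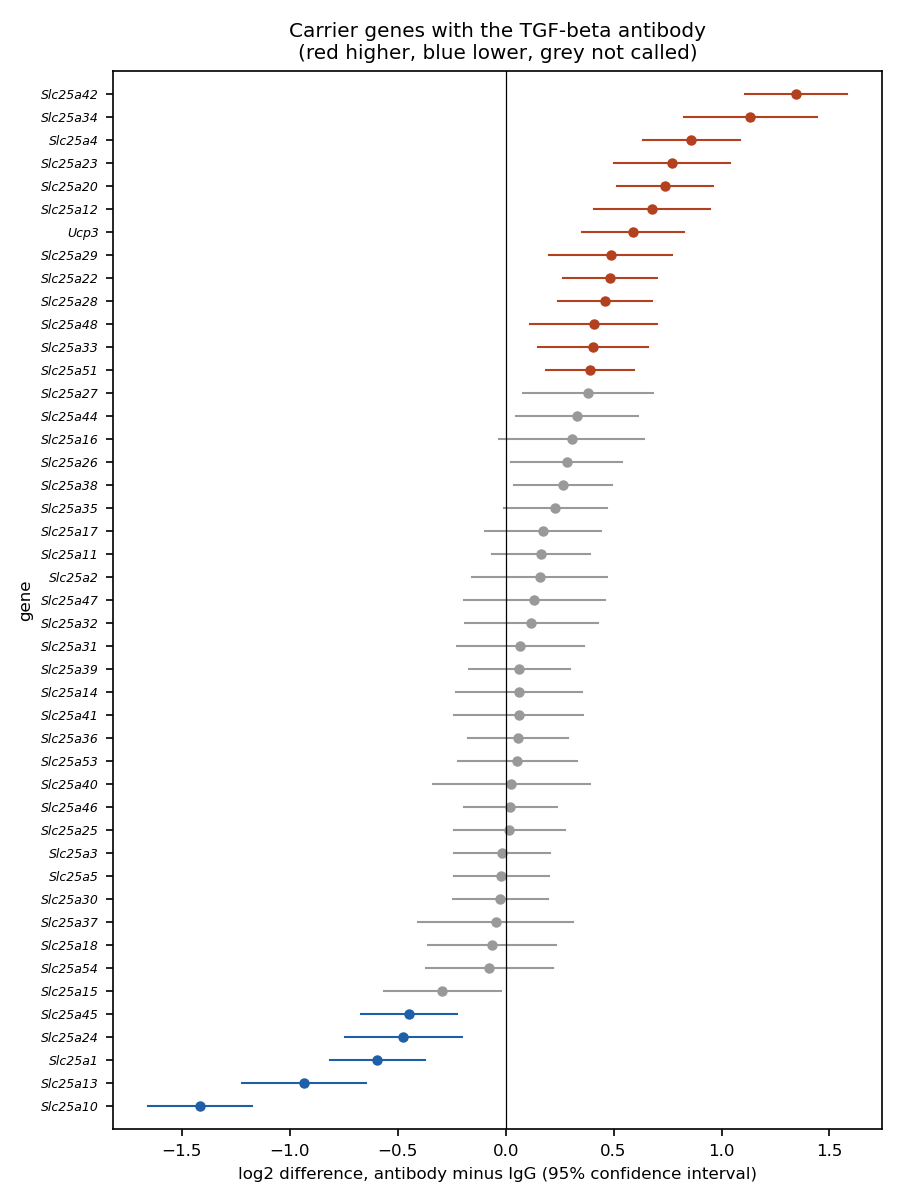
Log2 differences, antibody minus IgG, of the 45 carrier genes (points) with 95% confidence intervals from limma (lines), 2 arrays a group, ordered by difference. Slc25a42, Slc25a34 and Slc25a4 were highest and Slc25a10, Slc25a13 and Slc25a1 lowest; grey genes did not pass.

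Diet in wild type gave the fewest carrier calls, and most rested on single arrays. Leaving out WT_HFD replicate a ended 5 of the 6 (limma adjusted p 0.0769 to 0.341), WT_RD replicate a 3, WT_RD replicate b 2 and WT_HFD replicate b 1, Slc25a10. For diet in the knockout, leaving out KO_HFD replicate b ended 10 of 16 (adjusted p 0.0561 to 0.535) and KO_RD replicate b 7. The 6 that held under every alternative, all higher on the high fat diet, were Slc25a1, Slc25a4, Slc25a10, Slc25a23, Slc25a46 and Ucp3. Beside them 12 of 12 skeletal muscle markers rose and 6 of 8 epididymis and testis markers fell.

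Enzymes that work with these carriers, and other transporters of the mitochondrial membranes, were described from lists chosen by function. In the malate-aspartate and glycerol phosphate shuttles (6 genes), 5 were higher and 1 lower in the knockout on the high fat diet (4.74% and 6.05% of all genes), and 4 were higher and 0 lower with the antibody (11.7% and 12.6%). Gpd2, the mitochondrial glycerol phosphate dehydrogenase, was higher by 2.52 and 2.40 there, and by 1.16 in the knockout on the regular diet. Got2, the mitochondrial aspartate aminotransferase, differed between genotypes by 1.97 on the regular diet and -0.75 on the high fat diet. Of 3 carnitine shuttle enzymes measured, Cpt2, which acts inside the matrix after Slc25a20, was higher by 1.15 in the knockout on the high fat diet and by 0.61 with the antibody, but did not pass on the regular diet (0.20), unlike Slc25a20. Crat, which forms acetylcarnitine, was higher in all 3, by 0.37, 0.47 and 0.29. Cpt1a, the form of the outer membrane enzyme typical of liver, fell with the antibody by 0.85.

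Of 18 other carriers and channels, 8 were higher and 1 lower in the knockout on the high fat diet (44.4% and 5.56%, against 4.74% and 6.05% of all genes). On the regular diet 2 were higher and 5 lower (11.1% and 27.8%, against 8.40% and 15.6%). With the antibody 1 was higher and 1 lower, 11.1% in all, under the 24.3% of all genes. Mpc1, a subunit of the pyruvate carrier, differed between genotypes by -0.69 on the regular and 1.10 on the high fat diet, both called, as Slc25a4 did. Sfxn1, a serine carrier, rose with the antibody by 1.32. Of 13 genes for the import of carriers into the inner membrane, 4 rose with diet in the knockout (30.8%, against 11.5% of all genes). In the knockout 1 was lower on the regular diet (7.69%, under the 15.6% of all genes) and 1 higher on the high fat diet (7.69%, near the 4.74% of all genes). With limma 0 of the 13 passed for the antibody and 0 for diet in wild type, where 2 and 3 had an unadjusted p under 0.05.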

How the data were processed

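Each of 12 mouse samples was hybridised to its own Affymetrix array (6 ug of total RNA, per the labels' protocols). The deposited log2 values came from RMA in Partek, according to the submitters' processing notes, without versions. RMA corrects background, normalizes probe intensities and summarises probes. The deposited arrays did not share one distribution. The SD of the values on an array was 1.64 to 1.74 in the first experiment and 2.15 to 2.17 in the second. Within the first it was lowest in KO_RD (1.67 and 1.64) and highest in WT_RD (1.73 and 1.74). No detection calls were used and 0 per-sample columns were left unused. The platform annotation gave 1 gene for 34958 of 45101 probe sets, several for 932 and none for 9211. Gene IDs of 18032 of the 18194 genes matched a RefSeq table (GRCm38.p6), which changed 0 symbols. Of the 45 members, 24 had several probe sets.

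The tests used limma 3.58.1 under R 4.3.3 (group means over all 12 arrays, contrasts within an experiment, eBayes with intensity trend; 6 residual and 20.4 prior degrees of freedom), adjusted by Benjamini-Hochberg over 18194 genes, and the fit was tested on simulated data. The number of arrays limits the precision. Members and lists were chosen with earlier results of these data known. Values per array are given for 11 preset members and for called members with non-overlapping arrays and the highest and lowest differences (up to 4 each, 3 for the interaction). Other called members are named with their difference, and per-array values of Slc25a22, Slc25a28, Slc25a33, Slc25a35, Slc25a37, Slc25a45 and Slc25a51 were added after values were seen. Alternatives concerned the variance prior, dim genes, probe set choice, array scaling, arrays in the fit, the replicate letter and leaving out each array. Fits without both KO_RD or both WT_RD arrays were added after seeing the data.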

Additional observations from a re-analysis of the deposited data

Results flagged for a closer look

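The diet response differed between genotypes, by the interaction term of limma (adjusted p under 0.05), for 13 of the 45 carriers. The interaction was 1.70 log2 for Slc25a10, 1.49 for Slc25a4, 1.01 for Slc25a1, 0.97 for Slc25a23, 0.89 for Slc25a33, 0.80 for Slc25a30, 0.74 for Slc25a5, 0.71 for Slc25a35 and 0.66 for Slc25a46. These 9 calls held under every alternative that measured the gene. It was 0.55 for Slc25a28, 0.54 for Slc25a3 (0.535 to 3 digits), 0.52 for Slc25a17 and -0.64 for Slc25a47. These 4 calls were lost without KO_HFD replicate b (adjusted p 0.0585 to 0.213), and some without other arrays too. Over all genes 2181 interactions were positive and 1232 negative. Skeletal muscle markers had positive interactions in 12 of 12 and epididymis and testis markers negative ones in 8 of 8; their part in these values was not tested.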

How the results depend on the processing

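Leaving out 1 array moved the number of carriers called from 6 to between 1 and 6 for diet in wild type, and from 16 to between 6 and 17 for diet in the knockout. The ranges were 13 to 18 for genotype on the regular diet, 9 to 13 on the high fat diet, 14 to 16 for the antibody and 9 to 16 for the interaction. Every other alternative kept each of the 6 counts within 1.5 times its value, and no call reversed. With the replicate letter as a block the counts were 5, 14, 16, 11, 19 and 12 in the order diet in wild type, diet in the knockout, genotype on regular and high fat diet, antibody and interaction. Differences between arrays a and b correlated at r = -0.16 to 0.17 between groups of an experiment. Such weak correlations cannot decide whether arrays of the same letter were paired, and the labels do not say what the letters stand for. The 3 called members under the 40th percentile (Slc25a13, Slc25a34 and Slc25a48) have no value with the filter on dim genes. Where 1 array was left out, the spread of its lone partner was assumed equal to that of the other groups.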
